A study of Mus musculus with 3 samples.

Results

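The regions described here are 4 windows of the mouse genome (mm10) in which the peaks of a DNase-seq experiment carried high scores, with the highest median scores per Mb in 1 of its 2 peak lists: chr3:96000001-97000000, chr19:29000001-30000000, chr12:112000001-114000000 and chr9:21000001-22000000. Members were all peaks that start inside these windows in either of 2 deposited peak lists. They were 2746 of 410640 peaks, of which 1827 came from the 304049 peaks of replicate 1 and 919 from the 106591 peaks of replicate 2. By window, in replicate 1 and replicate 2 in turn, there were 487 and 279 peaks on chromosome 3, 374 and 176 on chromosome 19, 595 and 254 on chromosome 12, and 371 and 210 on chromosome 9. The 2 Mb on each side of every window (the flanks) held 2909 and 1195 further peaks and served for finding where the high scores begin and end.

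The cells were MEL, an immortalised line of mouse erythroleukaemia cells, kept for 24 hours in zinc dichloride at a labelled dose of 125, in a unit whose prefix cannot be read. All 3 libraries were treated and no untreated library was analysed here, so nothing below measures an effect of zinc. Of the libraries, 2 are technical repeats of biological replicate 1 and 1 is from biological replicate 2; each biological replicate has 1 list, and the lists are therefore set side by side with no standard deviation. Sex and age of the source were not recorded in the labels.

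DNase-seq sequences the ends left by DNase I, an enzyme that cuts DNA where nucleosomes are displaced. Such hypersensitive sites mark promoters, enhancers and insulators, and a broad stretch with many of them is usual around groups of active genes. Each peak covers 150 bp and has a whole-number score. The meaning of the score is not stated, so it ranks peaks within one list and scores of the lists were not compared as levels. The median score was 62 in replicate 1 and 30 in replicate 2. The highest-scoring 10% of a list began at 124 in replicate 1 and at 50 in replicate 2, and this class is called the top 10%. Through ties it held 10.1% and 10.5% of the peaks. Since the windows were chosen by this score, their scores are a description and were not tested.

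The following sequences show what the strongest elements of each window look like. For each window, the promoter peak and the distal peak with the highest replicate 2 score were taken among peaks free of repeat-masked bases and of annotated exons. A promoter peak has its midpoint within 1000 bp of a transcript start of a protein-coding gene, and a distal peak lies farther away. All are from the plus strand of the mm10 reference, 5′ to 3′, and capitals mark a match to 1 of 8 short motifs that were searched on both strands. On chromosome 3 the promoter peak chr3:96576816-96576965 is upstream of Gm16253, between genes, and holds the NF-Y motif CCAAT at 2 places. The distal peak chr3:96500716-96500865 is intergenic and scored 114, the highest of the windows in replicate 2.
chromosome 3, promoter: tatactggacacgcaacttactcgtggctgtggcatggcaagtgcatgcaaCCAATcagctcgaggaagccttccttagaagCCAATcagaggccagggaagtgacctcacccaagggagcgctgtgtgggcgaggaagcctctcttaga
chromosome 3, distal: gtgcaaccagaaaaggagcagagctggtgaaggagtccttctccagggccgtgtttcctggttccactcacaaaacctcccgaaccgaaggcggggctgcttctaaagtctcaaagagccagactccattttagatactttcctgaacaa
On chromosome 19 the promoter peak chr19:29366556-29366705 lies in an intron of Plgrkt and holds a GATA motif, AGATAA. The distal peak chr19:29431296-29431445 lies in an intron of Pdcd1lg2. Neither of them overlapped a replicate 1 peak.
chromosome 19, promoter: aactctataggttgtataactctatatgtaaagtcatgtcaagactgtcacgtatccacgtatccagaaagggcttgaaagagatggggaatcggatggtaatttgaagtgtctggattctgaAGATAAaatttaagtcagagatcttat
chromosome 19, distal: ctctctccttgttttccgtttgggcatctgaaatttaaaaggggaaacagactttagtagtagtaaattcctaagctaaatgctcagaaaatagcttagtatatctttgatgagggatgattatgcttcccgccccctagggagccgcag
On chromosome 12 the promoter peak chr12:112619676-112619825 is 295 bp from the start of Adssl1, and the intergenic distal peak chr12:112463956-112464105 holds the CREB motif TGACGTCA.
chromosome 12, promoter: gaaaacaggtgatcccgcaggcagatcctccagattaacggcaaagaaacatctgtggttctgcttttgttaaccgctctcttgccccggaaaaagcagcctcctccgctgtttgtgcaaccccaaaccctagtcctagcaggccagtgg
chromosome 12, distal: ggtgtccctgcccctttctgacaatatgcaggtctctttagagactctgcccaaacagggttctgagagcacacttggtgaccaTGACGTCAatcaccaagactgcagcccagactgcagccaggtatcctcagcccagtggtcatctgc
On chromosome 9 the promoter peak chr9:21424656-21424805 is 178 bp from the start of Dnm2 and holds an NF-Y motif on the minus strand (ATTGG as printed). The distal peak chr9:21168236-21168385 lies in an intron of Pde4a and overlapped no replicate 1 peak.
chromosome 9, promoter: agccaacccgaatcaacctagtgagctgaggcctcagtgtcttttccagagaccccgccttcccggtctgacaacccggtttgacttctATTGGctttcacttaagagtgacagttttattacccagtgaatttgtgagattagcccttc
chromosome 9, distal: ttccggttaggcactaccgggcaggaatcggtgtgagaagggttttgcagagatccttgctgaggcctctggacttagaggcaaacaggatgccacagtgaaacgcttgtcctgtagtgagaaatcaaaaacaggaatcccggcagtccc
These 8 peaks scored 86 to 114 in replicate 2. In that list 19.2% of all promoter peaks held CCAAT, 5.47% of promoter peaks held AGATAA and 0.135% of distal peaks held TGACGTCA. A match is a string of letters and not evidence of a bound factor.

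The erythroid identity of the cells was checked on promoter peaks, that is, peaks overlapping the stretch within 1000 bp of a transcript start. A gene's promoter score, here and below, is the highest over all its annotated transcript starts. Away from the 5′ end of the gene were the peaks scored for Cep170b, Bcl9, Cd160, Prkab2, Dnmt1, Crip1 and Pdcd1lg2, among others. Different starts were scored in the lists for Il33, Ppp2r5c and Plgrkt, among others. All 8 erythroid markers carried one in replicate 1 and 7 of the 8 in replicate 2, where Nfe2 did not. Of 6 markers of T cells, B cells and granulocytes, 2 carried one in each list, both below the top 10% in replicate 2. Over all 21938 protein-coding genes the share with a promoter peak was 63.6% in replicate 1 and 49% in replicate 2.

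Inside each window the median and both quartiles of the scores lay higher than in its flanks, in both lists. The 95th percentile did not on chromosome 9 in replicate 2 (75 inside, 76 in the flanks). On chromosome 19 the median score was 84.5 (95% interval 78 to 91) inside and 40 in the flanks in replicate 1, and 54 (48 to 59) against 21.5 in replicate 2. On chromosome 12 it was 84 (79 to 90) against 46, and 51 (48 to 54) against 33.5. The gap was smaller on chromosome 3, with 98 (90 to 104) against 81 in replicate 1 and 58 (54 to 61) against 42 in replicate 2. In replicate 2 the gap in deposited score was smallest on chromosome 9, where the medians were 50.5 (45 to 54) and 38. On the scale of within-list percentiles the replicate 2 gap was 20.4 on chromosome 9 and smaller, 17.9, on chromosome 3. In replicate 1 the chromosome 9 medians were 88 (82 to 95) and 69, and the smallest gap was on chromosome 3 on both scales. When the replicate 1 list was reduced to its strongest peaks, to the length of the replicate 2 list, its gaps shrank to 2 on chromosome 3, 9.5 on chromosome 19, 6.5 on chromosome 12 and 3 on chromosome 9. In replicate 2 the lowest 10% of scores ended at 31, 25.5, 29 and 25 inside the windows of chromosomes 3, 19, 12 and 9, against 15 over the list. In replicate 1 they ended at 49 on chromosomes 3, 19 and 9, against 29 over the list, and at 23.4 on chromosome 12, where weak peaks were thus more common than in the list. The intervals are order-statistic intervals of a median over neighbouring peaks, which are not independent.

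**Figure D1:**
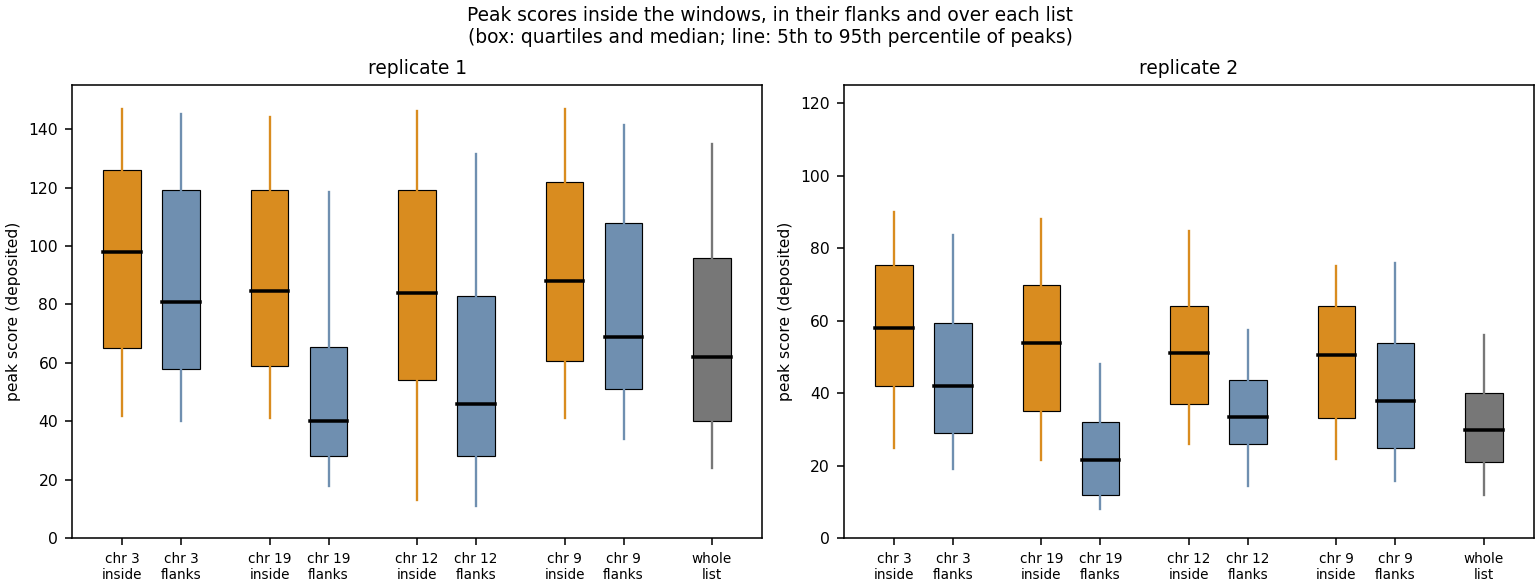
Peak scores (vertical axis, as deposited) inside each window (orange), in its flanks (blue) and over the whole list (grey), for replicate 1 (left) and replicate 2 (right); boxes give quartiles and median, lines the 5th to 95th percentile of peaks. Each orange median lies above its blue neighbour, most widely on chromosome 19 (54 against 21.5 in replicate 2).

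In replicate 2 the windows held far more than their share of the strongest peaks. Of the chromosome 3 peaks, 177 of 279 (63.4%, Wilson 95% interval 57.6 to 68.9, counting error only) were in the top 10%, which holds 10.5% of that list. The corresponding values were 98 of 176 (55.7%) on chromosome 19, 133 of 254 (52.4%) on chromosome 12 and 106 of 210 (50.5%) on chromosome 9. In the flanks they were 36.5% on chromosome 3, 4% on chromosome 19, 13.5% on chromosome 12 and 31.1% on chromosome 9. Replicate 1 showed smaller shares, 27.7%, 23.0%, 21.3% and 24.3% in the same order of windows, against 10.1% of that list. Distal peaks alone behaved alike: in replicate 2, 58.5%, 51.8%, 44.5% and 33.0% of them were in the top 10%, against 7.44% of all distal peaks. The chromosome 9 value was the lowest, and 49.5% of the peaks in that window were promoter peaks, more than in the other windows (22.2% to 32.6%). Of the 312 replicate 2 peaks scoring 80 or more on the assembled chromosomes, 98 (31.4%) lay in the windows and 57 in their flanks. The windows hold 0.865% of that list.

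Ranked among all 1 Mb windows of the genome that have at least 20 peaks, the regions stood first in replicate 2. Of 1560 such windows, chromosome 3 ranked 1 by median score, chromosome 19 ranked 2, the first Mb of the chromosome 12 region 3 (median 51.5), chromosome 9 ranked 4 and the second Mb of the chromosome 12 region 5 (49.5). The next window, on chromosome Y, had a median of 49. In replicate 1, with 2221 windows, chromosome 3 again ranked 1 and the first Mb of chromosome 12 ranked 2, while chromosome 9 ranked 7 (a tie) and chromosome 19 ranked 16. The second Mb of chromosome 12 ranked 1270 in replicate 1, with a median of 55.5. Across windows, the medians of the lists had a Spearman rho of 0.673, a description over 1560 windows that share libraries and neighbours. The median score also followed the number of peaks in a window, with a rho of 0.806 in replicate 1 and 0.499 in replicate 2; the part of peak number in the ranks was not tested.

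**Figure D2:**
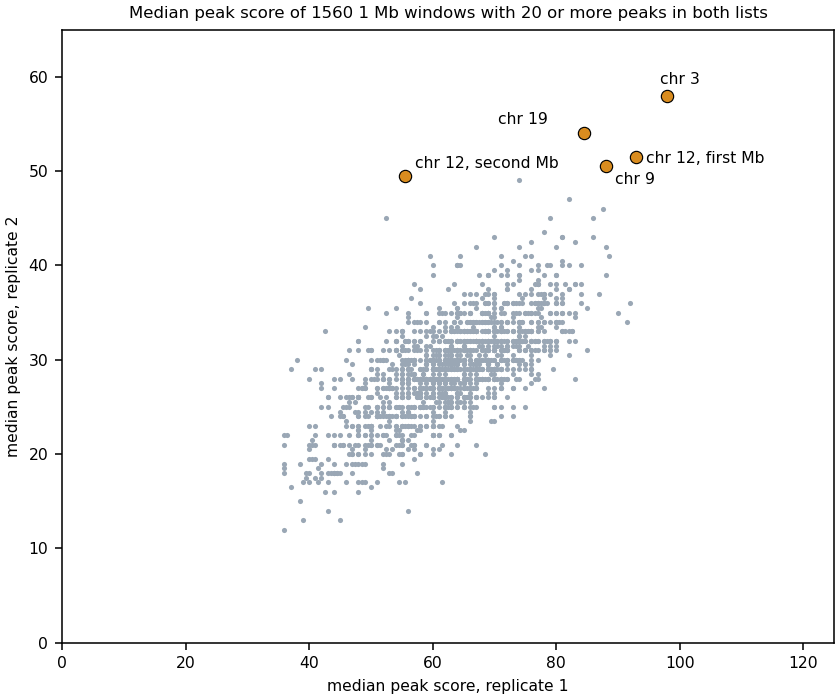
Median peak score of each 1 Mb window with at least 20 peaks in both lists, in replicate 1 (horizontal axis) and replicate 2 (vertical axis); grey points are single windows and orange points the regions described here. The 5 orange points have the highest replicate 2 medians (49.5 to 58), and the second Mb of chromosome 12 is near the middle of the replicate 1 range (55.5).

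To place the edges, a single raised segment of at least 20 peaks was fitted by least squares to the within-list percentile of the scores over each window and its flanks. On chromosome 19 the lists gave near-equal stretches, chr19:28986216-30051805 (1.07 Mb) in replicate 1 and chr19:29181156-30033425 (0.852 Mb) in replicate 2. Their right edges were 18.4 kb apart and their left edges 195 kb apart. On chromosome 12 the right edges, at 113242785 and 113222825, were 19.96 kb apart, but the left edges were 2081 kb apart: replicate 1 gave chr12:110373536-113242785 (2.87 Mb) and replicate 2 chr12:112455016-113222825 (0.768 Mb). On chromosome 9 both lists gave a stretch far longer than the window, chr9:20353756-22824085 (2.47 Mb) and chr9:20384776-22815205 (2.43 Mb). On chromosome 3 they differed most, with chr3:94723776-98357205 (3.63 Mb) in replicate 1 and chr3:96057596-96836305 (0.779 Mb) in replicate 2. With 5 Mb to each side in place of 2 Mb, replicate 2 also gave a long stretch there, chr3:94757496-98357165 (3.60 Mb). Runs of 100 kb bins gave 1.7 Mb in replicate 1 and 2.1 Mb in replicate 2 on chromosome 3. The right edges on chromosomes 19 and 12 moved little across most settings, whereas the extents on chromosome 3 and chromosome 9 and the left edge on chromosome 12 depended on the setting. With 5 Mb sides the replicate 2 stretch on chromosome 12 ran on to 116436365, across a span that held 4 peaks in the immunoglobulin genes.

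**Figure D3:**
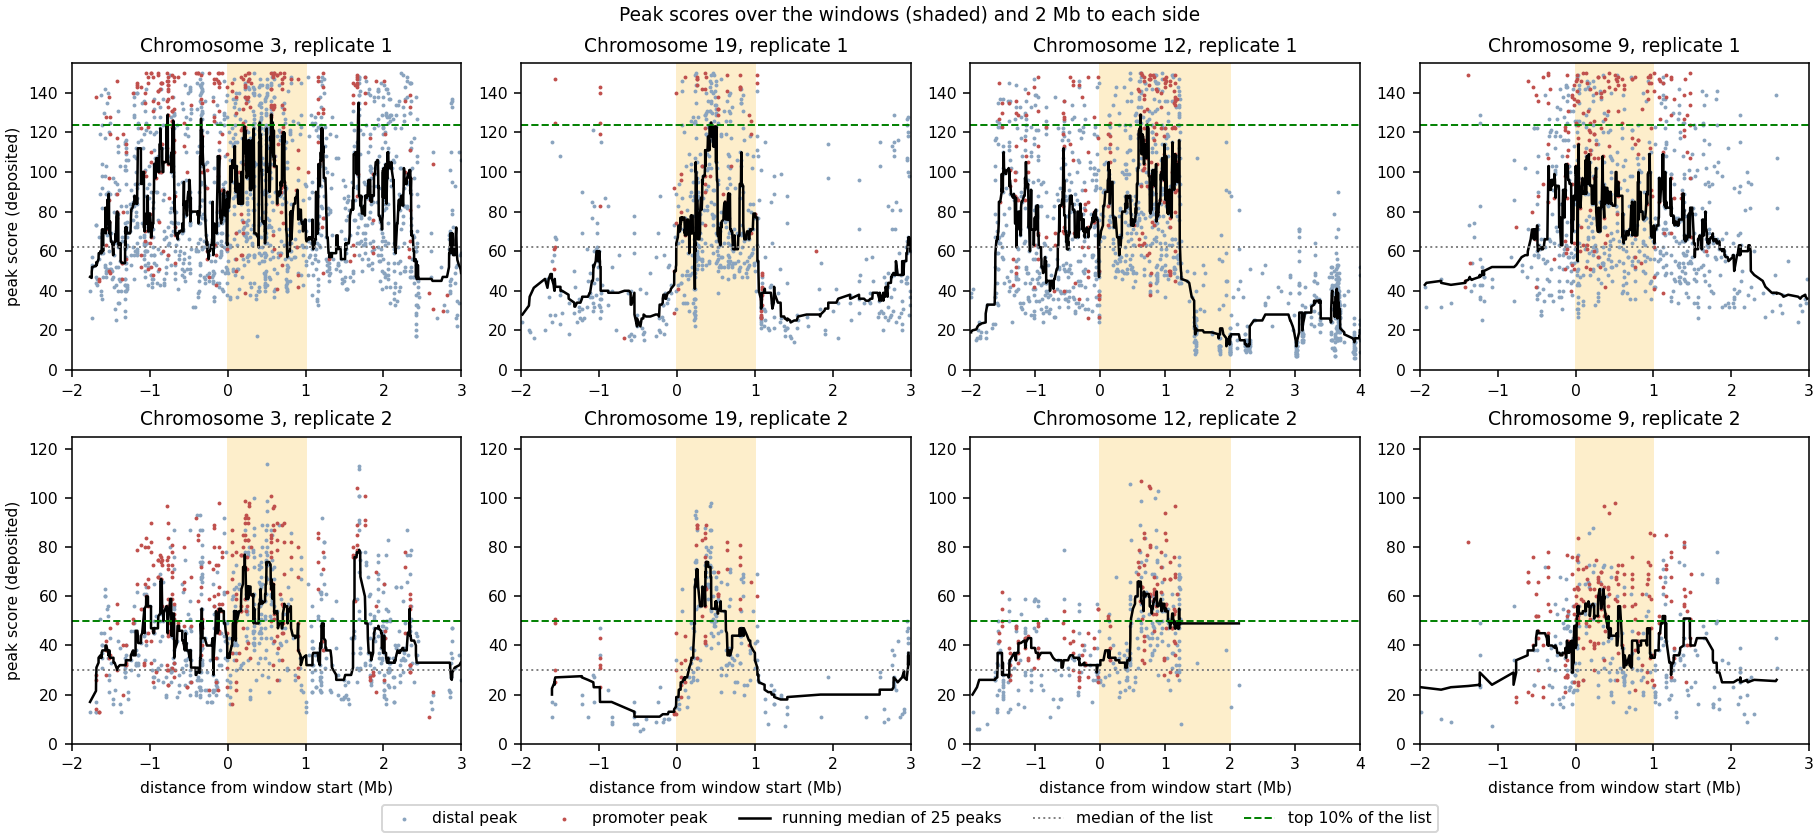
Score of every peak (vertical axis) against its distance in Mb from the window start (horizontal axis) for replicate 1 (top) and replicate 2 (bottom); red points are promoter peaks, blue points distal peaks, the black line a running median of 25 peaks, the dotted and dashed lines the list median and the start of the top 10%, and shading marks the window. The line rises and falls within the shading on chromosome 19, drops inside it on chromosome 12, and stays high beyond it on chromosomes 3 and 9.

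The windows themselves end at round megabase positions, and the scores do not always change there. Of the 10 replicate 2 peaks before and after each left border, the medians were 37.5 and 25 on chromosome 3, 14 and 24.5 on chromosome 19, 32 and 40.5 on chromosome 12, and 30.5 and 54 on chromosome 9. At the right border, the last 10 peaks inside and the first 10 outside had medians of 39.5 and 25 on chromosome 3, 37.5 and 37.5 on chromosome 19, and 36.5 and 22.5 on chromosome 9. On chromosome 12 the last 10 had a median of 49, and the flank beyond held only 2 peaks, at 15 and 24. In replicate 1 the clearest change at a border was also on chromosome 12, from 37.5 before the window to 86.5 inside.

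On chromosome 19 the high replicate 2 promoter scores ran from Jak2 to Uhrf2, over the locus of the erythropoietin receptor's kinase and of the immune checkpoint ligands. The replicate 1 stretch began earlier, at 28986216, before Cdc37l1. In 100 kb steps, the replicate 2 median was 31 at chr19:29100001-29200000 and 56 at chr19:29200001-29300000. On the far side it was 34 at chr19:30000001-30100000 and 13 at chr19:30100001-30200000. The lowest replicate 1 score per step was 34, 30 and 22 in the first 3 steps of the window and 51 in the next, and it was 52 at chr19:29900001-30000000 and 21 in the step after. The steps that hold the starts of Jak2 and Uhrf2 thus included weak peaks. Their replicate 1 medians were 72 and 40.5, where the list median was 62 and the top 10% of 100 kb bins began at 84. Within the stretch, at chr19:29700001-29800000, the medians dipped to 60 in replicate 1 and 32 in replicate 2.

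The genes before the replicate 2 edge had modest promoter scores in replicate 2 although 2 of the 3 scored high in replicate 1. Cdc37l1, related to an HSP90 co-chaperone, scored 140 in replicate 1 and 45 in replicate 2. Ak3, a mitochondrial adenylate kinase, scored 99 and 33, and Rcl1, which acts in ribosomal RNA processing, scored 148 and 44. All 3 were below the top 10% in replicate 2, as was 4430402I18Rik (92 and 13), which lies before the replicate 1 edge. Jak2 (chr19:29251828-29313080, plus strand), the tyrosine kinase that carries the erythropoietin signal, scored 148 and 89. Insl6, an insulin-like peptide gene, scored 142 and 83. Plgrkt, a plasminogen receptor, and Cd274, which encodes the checkpoint ligand PD-L1, start close together and share a replicate 2 promoter peak at chr19:29367216-29367365 with a score of 89; in replicate 1 they scored 150 and 148. Ermp1, an endoplasmic reticulum metallopeptidase, scored 149 and 82.

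Beyond these genes the promoter scores on chromosome 19 were lower but mostly still in the top 10%. Ric1, a guanine nucleotide exchange subunit for a Golgi Rab protein, scored 138 and 70. Ranbp6, of the importin family, scored 143 and 59, and Il33, an alarmin cytokine, 129 and 66. Uhrf2, a ubiquitin ligase that binds modified cytosine, starts at 30030513, just past the window, and scored 149 and 69. The other checkpoint ligand gene, Pdcd1lg2, scored 98 in replicate 1 and lacked a promoter peak in the other list, although the strongest distal peak of the window lies in its body. The relaxin gene Rln1 had none in either list, nor did Gldc, the glycine decarboxylase gene beyond Uhrf2. The next gene with any promoter peak, the cyclic GMP kinase gene Prkg1, scored 60 in replicate 1. From Jak2 to Uhrf2, a run named after its values were seen, 10 of 14 genes carried one in replicate 2, with a median of 81.5, and all 10 were in the top 10%; over all genes with a promoter peak 39.4% were, and in replicate 1 68.3%. Of the 11 genes before the run 7 had a replicate 2 peak, with a median of 44, and of the 6 after it none had. In replicate 1, 10 of the 13 genes of the run with a promoter peak were in the top 10% (median 143). Before the run 4 of 8 were (median 119.5).

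On chromosome 12 the raised stretch ended just short of the immunoglobulin heavy chain genes. Its last peak ended 12.045 kb before Igha, the first of these genes, in replicate 1 and 32.005 kb before it in replicate 2. The 217 annotated heavy chain segments span 2.76 Mb from 113254830, where antibody genes are assembled in B cells. In replicate 1, 31 of the 217 overlapped a peak, and the 430 peaks in the span had a median score of 23. In replicate 2 none did, and the span held 4 peaks, with scores of 15 to 38. Part of this span lies in the second Mb of the window and part in the right flank. Per 100 kb, the replicate 2 median was 51 at chr12:113200001-113300000, and the next step had no peak.

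Before the rise on chromosome 12, 4 of the 25 genes with a replicate 2 promoter peak were in the top 10%, against 39.4% over all genes with one. Ppp2r5c, a regulatory subunit of a phosphatase and the first gene of the long replicate 1 stretch, scored 145 and 62. Tdrd9, a helicase of the germ-line piRNA pathway, scored 148 and 55. Aspg, an asparaginase, scored 119 and 52, and Kif26a, a kinesin-family gene, 125 and 48. The step came between Kif26a and Inf2, an actin-nucleating formin, which scored 142 and 79. The 5 highest promoter scores of this window in replicate 2 all lay past it. Adssl1 (chr12:112619676-112619825 for its peak), an adenylosuccinate synthase of muscle, scored 150 and 107. Cep170b, a centrosome-associated gene, scored 147 and 105, at a transcript start inside the gene. Pld4, a lysosomal nuclease of the phospholipase D family, scored 149 and 104. Tedc1, of a tubulin-modifying complex, scored 149 and 97, and Brf1, a subunit of the RNA polymerase III initiation factor, 147 and 94.

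Signalling and chromatin genes of the chromosome 12 stretch fell at several levels. Akt1 (chr12:112653821-112674884, minus strand), the kinase downstream of many growth factor receptors, scored 148 and 86. Pacs2, a sorting protein, scored 148 and 83, and Siva1, a pro-apoptotic gene, 149 and 64. The neighbouring LIM-domain genes Crip2 and Crip1 scored 141 and 76, and 138 and 69. Mta1, a subunit of the NuRD chromatin remodeller, scored 122 and 47 and was the only gene of the run from Inf2 to Tmem121 with a replicate 2 promoter peak below the top 10%. Tmem121, the last gene of the stretch, scored 137 and 61. Jag2, a Notch ligand, scored 96 in replicate 1 and lacked one in replicate 2. Btbd6 and, among the immunoglobulin genes, the sperm protein genes Adam6a and Adam6b had none in either list, and neither did A530016L24Rik. From Inf2 to Tmem121, 18 of 22 genes had a replicate 2 promoter peak (median 77) and 17 were in the top 10%, whereas of the 37 genes before Inf2 25 had one (median 44) and 4 were. Over all genes with a replicate 2 promoter peak 39.4% were. Replicate 1 showed a smaller step, with 17 of 21 in the run (median 146) and 22 of 31 before it (median 135). Over all genes with a replicate 1 promoter peak 68.3% were in the top 10%.

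On chromosome 3 the window is the centre of a longer gene-rich stretch in which strong promoters continued on both sides. Its best known content is the Hist2 cluster, which supplies core histones during DNA replication. The divergent pair Hist2h2ac and Hist2h2be share a promoter peak at chr3:96220936-96221085 (149 and 99). Another peak, at chr3:96269496-96269645 (150 and 98), lies just upstream of Hist2h2bb. It also counted for Hist2h3b, on the same strand, since it overlaps the stretch within 1000 bp of that gene's start. It lies past the 3′ end of Hist2h3b. Hist2h4 scored 150 and 92. Scores of the near-identical pairs Hist2h3c1 and Hist2h3c2 (112 and 56, 135 and 93) and Hist2h2aa1 and Hist2h2aa2 (137 and 76, 108 and 54) are uncertain, since the treatment of reads matching several places is not given. Txnip (chr3:96557957-96561883, plus strand), the thioredoxin-interacting protein of glucose and redox control, had the highest promoter score of this window in replicate 2, at 101, and scored 150 in replicate 1.

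Most other promoter scores of the chromosome 3 window were in the top 10% of replicate 2. Polr3gl and Polr3c, both subunits of RNA polymerase III, scored 150 and 97, and 150 and 90. Rbm8a, of the exon junction complex, scored 149 and 83, and Pias3, an inhibitor of STAT proteins, 147 and 89. Fcgr1, an antibody receptor of myeloid cells, scored 145 and 80. Plekho1, the last gene before the window, scored 143 and 62. The vesicle sorting gene Vps45, the first of the replicate 2 stretch, scored 145 and 87, and Cd160, an immune receptor gene and the last of it, 147 and 82. Just beyond it Gja5, a gap junction gene, still scored 147 and 80. Itga10, a collagen-binding integrin, scored 114 and 39, the only replicate 2 promoter score of the window below the top 10%. Sv2a, a synaptic vesicle gene, scored 122 in replicate 1 and lacked one in the other list. BC107364, the iron regulator hemojuvelin (Hfe2) and the scaffold gene Pdzk1 had no promoter peak in either list.

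Outside the window the run of strong replicate 2 promoters on chromosome 3 was taken from Pogz to Phgdh. Before it, Selenbp2, a selenium-binding protein, scored 114 and 40. Cgn, of tight junctions and the first gene of the replicate 1 stretch, scored 140 and 51, in the top 10% of both lists. The next gene, the zinc finger gene Pogz, scored 145 and 79. On the right, Bcl9, a cofactor of Wnt signalling, scored 150 and 78, Chd1l, a chromatin remodeller, 145 and 80, and Prkab2, a subunit of the energy sensor AMPK, 149 and 104. Phgdh, the entry enzyme of serine synthesis, scored 139 and 69, and the steroid dehydrogenase gene Hsd3b5, past the edge, 104 and 21. From Pogz to Phgdh, 78 of 96 genes had a replicate 2 promoter peak (median 80), 76 of them in the top 10%. Of the 20 genes before, 9 had one (median 42, 2 in the top 10%), and of the 10 after, 2 had one, at 11 (Gm10681) and 21. Over all genes with a replicate 2 promoter peak 39.4% were in the top 10%. In replicate 1 the top 10% held 73 of 84 in the run (median 147) and 6 of 11 before it (median 128). Over all genes with a replicate 1 promoter peak it held 68.3%. As on chromosomes 19, 12 and 9, this run was named after its values were seen.

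**Figure D4:**
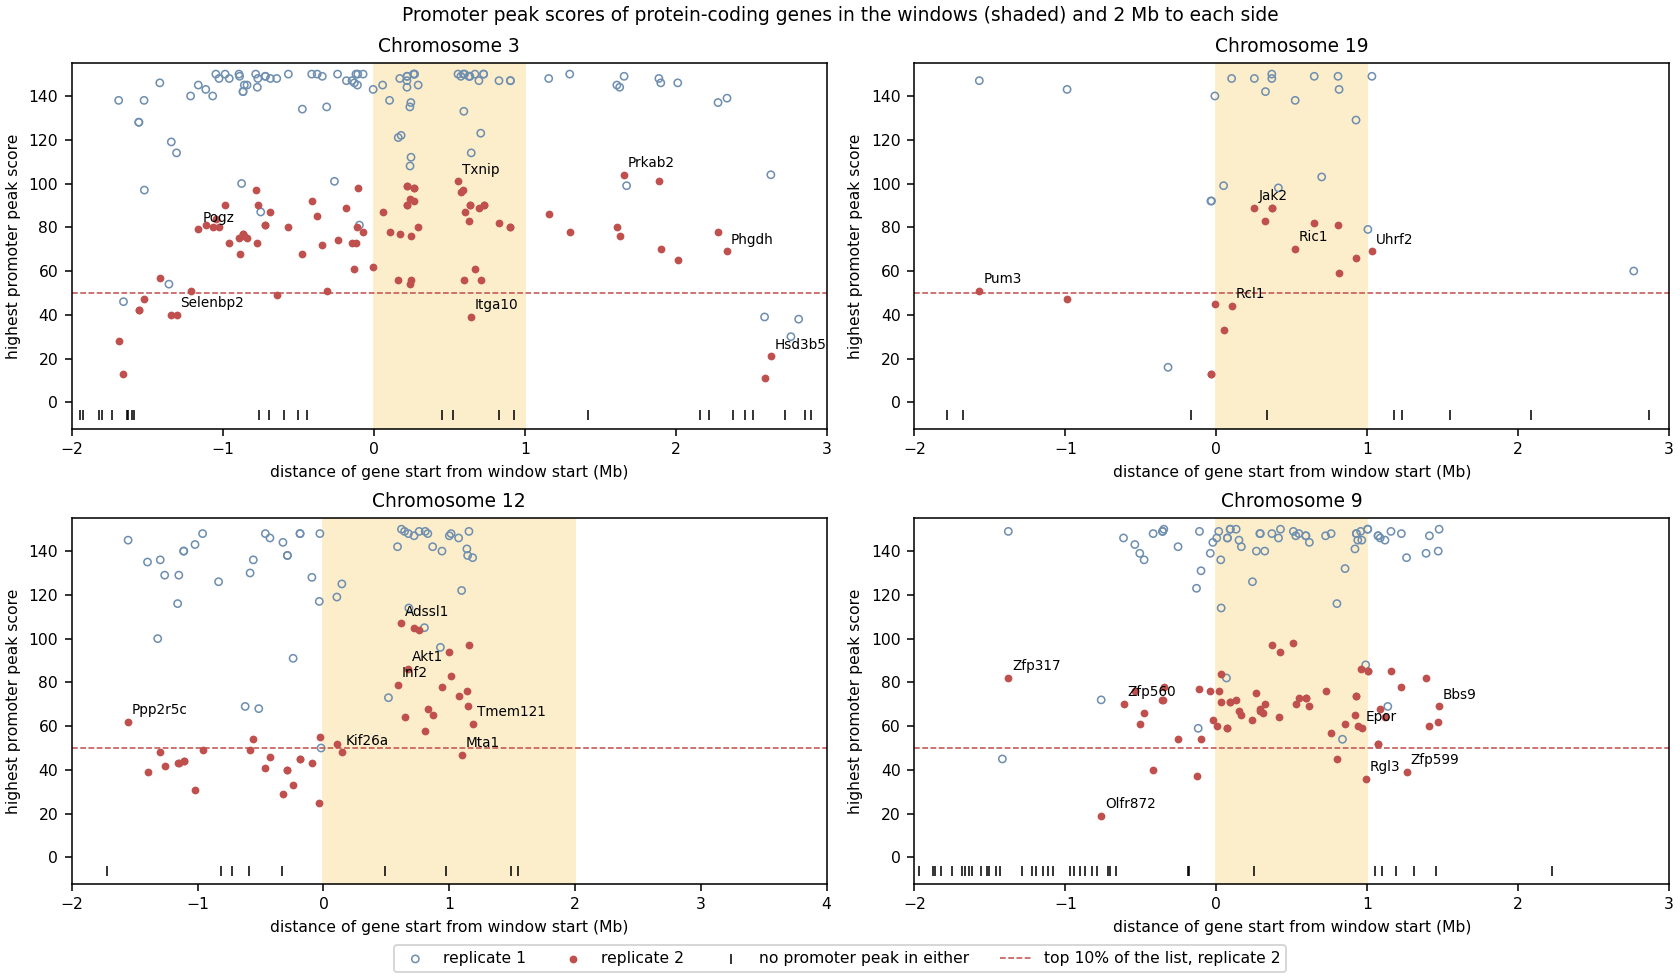
Highest promoter peak score of every protein-coding gene (vertical axis) against the distance of its start from the window start in Mb (horizontal axis), in replicate 1 (open blue) and replicate 2 (filled red); ticks near 0 mark genes with a promoter peak in neither list, the dashed line the start of the replicate 2 top 10%. Red points step up between Rcl1 (44) and Jak2 (89) on chromosome 19 and between Kif26a (48) and Inf2 (79) on chromosome 12. Open points of the same genes are 148 for both Rcl1 and Jak2, and 125 for Kif26a and 142 for Inf2.

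The chromosome 9 window lies in a dense run of genes that starts where an olfactory receptor cluster ends. Before it, promoter peaks of replicate 2 were found at 2 of 32 genes, Olfr872 with 19 and the zinc finger gene Zfp317 with 82. The run opened with Zfp560, another zinc finger gene, at 146 and 70, and closed with Bbs9, a ciliary gene, at 150 and 69. In it, 64 of 76 genes had a replicate 2 promoter peak (median 69) and 59 were in the top 10%, against 39.4% over all genes with one. In replicate 1, 59 of the 67 genes with a promoter peak were (median 146), against 68.3% over all genes with one. Among the highest were Tmed1, of vesicle transport, at 149 and 98, and Dnm2, the dynamin of endocytosis, at 150 and 94. Swsap1, of homologous recombination, scored 149 and 86, and the neuronal adhesion gene Icam5 114 and 84.

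The middle 50% of replicate 2 promoter scores in the chromosome 9 window ran from 63 to 74. Epor (chr9:21958897-21963506, minus strand), the erythropoietin receptor, scored 145 and 59 and lay below this range. Icam4, a red cell blood group adhesion molecule, scored 136 and 71, and its neighbour Icam1, the ligand of leukocyte integrins, 149 and 76. Tyk2, a kinase of the JAK family, scored 150 and 72. Cdc37, the HSP90 co-chaperone of kinases, scored 145 and 67, and Keap1, the sensor of oxidative stress, 126 and 63. Among chromatin genes, Carm1, an arginine methyltransferase, scored 148 and 73, Smarca4, the ATPase of the SWI/SNF complex, 144 and 69, and Dnmt1, the maintenance DNA methyltransferase in the left flank, 139 and 76. Prkcsh, a glucosidase subunit just past the right border, scored 150 and 85. Kank2, a cytoskeletal regulator, scored 116 and 45, below the top 10% in replicate 2, as did Rgl3 (88 and 36), a gene of Ral signalling chosen after its values were seen. S1pr5, a lipid receptor gene, had no promoter peak in either list.

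Most protein-coding genes of the windows carried a promoter peak. Genes were counted where any transcript start lies inside, which includes Cdc37l1 and Tdrd9, whose 5′ ends and promoter peaks lie just before the border. In replicate 2 the genes with a promoter peak were 33 of 38 genes on chromosome 3 (median score 87), 12 of 15 on chromosome 19 (75.5), 21 of 29 on chromosome 12 (74) and 37 of 40 on chromosome 9 (70), against a median of 47 over all genes with one. In replicate 1 the counts were 34, 14, 25 and 38, with medians of 147, 142.5, 142 and 146 against 135. In the flanks the replicate 1 medians were 145 on chromosome 3, 92 on chromosome 19, 136 on chromosome 12 and 145.5 on chromosome 9. The flanks showed lower replicate 2 medians on chromosomes 19 (47, 5 of 16 genes) and 12 (43, 22 of 32 genes), and values near those inside on chromosomes 3 (75.5, 56 of 88) and 9 (68, 29 of 69). Promoter scores come from the same peaks that chose the windows, so these values are descriptive.

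Gene lists with members in and out of the windows were described by counts and medians. Of the erythroid markers only Epor lies inside, with a replicate 2 promoter score of 59. Of the 7 elsewhere, 6 had a replicate 2 promoter peak, with a median of 54 (32 to 73). Of the erythropoietin receptor signalling list, Epor, Jak2, Tyk2 and Akt1 lie inside, and their replicate 2 promoter scores were 59, 89, 72 and 86 (median 79). Of the 29 members elsewhere, 24 had a replicate 2 promoter peak, with a median of 48 and a range of 33 to 71. The highest of these was the adaptor Shc1 (71), and the lowest the transcription factor gene Stat5a (33). Jak1 and Jak3, the relatives of Jak2, scored 37 and 36. In replicate 1 the medians were 148 inside and 137.5 elsewhere. Of the clustered histone genes, the 10 on chromosome 3 had a replicate 2 median of 92.5 (54 to 99), and 45 of the 57 elsewhere had a peak, with a median of 52 (35 to 79). In replicate 1 these medians were 146.5 and 145. Genes that share a promoter peak were counted separately, so some histone peaks enter these medians more than once.

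**Figure D5:**
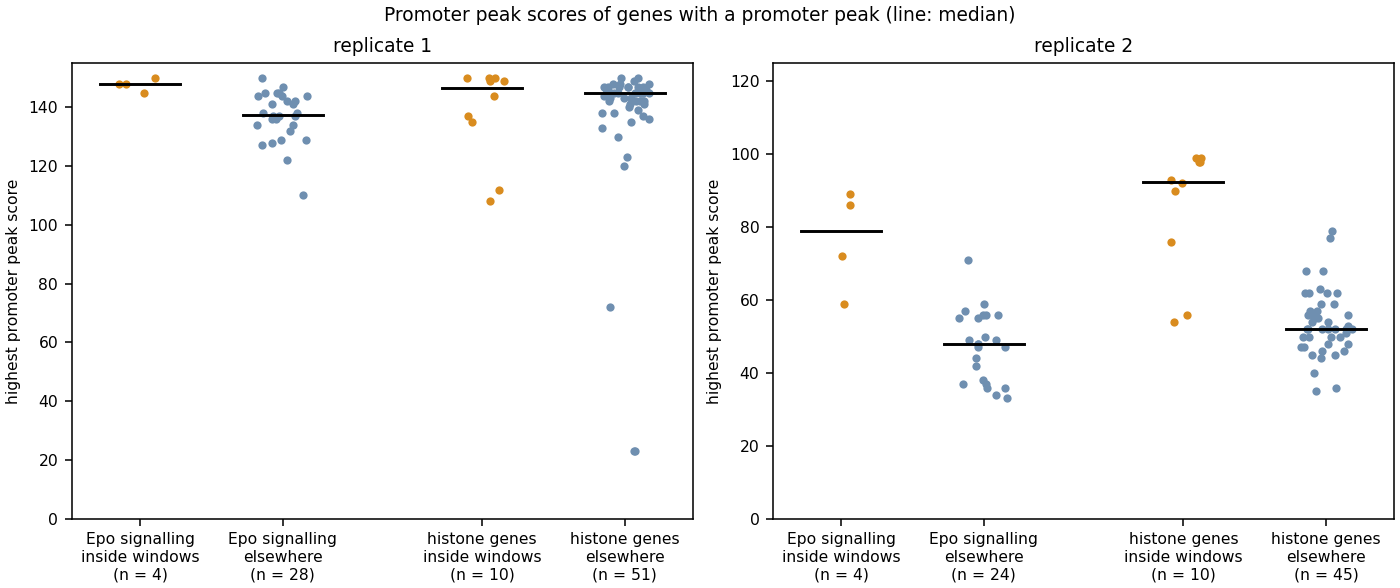
Highest promoter peak score (vertical axis) of each gene with a promoter peak in the erythropoietin signalling list and the clustered histone list, for members inside the windows (orange) and elsewhere (blue), in replicate 1 (left) and replicate 2 (right); each point is a gene and the line is the median. In replicate 2 the medians are 79 and 48 for erythropoietin signalling and 92.5 and 52 for histone genes, and the ranges of inside and elsewhere overlap for both gene groups. Histone genes that share a peak have a point each.

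The windows were also rich in genes and peaks. They held 38 protein-coding genes per Mb on chromosome 3, 14 on chromosome 19, 14 on chromosome 12 and 40 on chromosome 9, against 8.05 over the genome. Peak density in replicate 2 was 279, 176, 127 and 210 per Mb in the same order, against 39.0 over the genome. In replicate 1 it was 487, 374, 297.5 and 371 per Mb, against 111.4. All 4 windows thus lay above the genome in gene density and peak density. The flanks of chromosomes 3 and 9 did too, with 22 and 17.25 genes and 171.75 and 59.5 replicate 2 peaks per Mb. Flanks of chromosomes 19 and 12 had 4.25 and 8.25 genes and 25 and 42.5 replicate 2 peaks per Mb. The part of these densities in the scores was not tested.

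Hotspots, the broader enriched stretches deposited beside the peaks, were stronger and longer inside the windows in replicate 2. Each has a −log10 q value capped at 100. In replicate 2, 70 of 175 hotspots on chromosome 3 (40%) were at the cap, 31.6% on chromosome 19, 36.1% on chromosome 12 and 36.7% on chromosome 9, against 17.1% of that list. In the flanks the values were 30.2%, 18.2%, 13.6% and 33.1%. Median hotspot width in replicate 2 was 462, 406.5, 458.5 and 425 bp inside, against 246 bp over the list. In replicate 1, 64.2%, 55.7%, 52.1% and 59.4% were at the cap against 55.6% of the list, so the share was near that of the list on chromosome 19 and below it on chromosome 12. Hotspots come from the same libraries as the peaks and are not independent of the scores.

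The share of replicate 2 peaks also found in replicate 1 was close to that of the list as a whole, whereas the share in the other direction was higher than in the list. Of replicate 2 peaks, 73.1% (95% interval 67.6 to 78.0) overlapped a replicate 1 peak by at least 1 bp on chromosome 3, 71.0% on chromosome 19, 70.9% on chromosome 12 and 71.0% on chromosome 9. All replicate 2 peaks together gave 70.6%, which lies within each of the 4 intervals. In the other direction, 23.6% of all replicate 1 peaks overlapped a replicate 2 peak, and each window lay above this value with its whole interval. The lowest window share was 28.9% (25.4 to 32.7), on chromosome 12. The flanks of chromosomes 3 and 9 also lay above the list, and those of chromosomes 19 and 12 did not. These intervals treat neighbouring peaks as independent. Among peaks found in both lists, the flanks of chromosome 19 differed in rank from the window: their median percentile was 66.9 in replicate 1 and 27.9 in replicate 2, whereas inside it was 89.7 and 91.1.

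Some sequence features of the window peaks were close to those of the lists and others were not. The median GC content of replicate 2 peaks was 46.0%, 44.7%, 52.7% and 52.3% on chromosomes 3, 19, 12 and 9, and 47.3% over the list. The 8 motifs searched were those of GATA factors, NF-Y and CREB given above, GAGGAAGT for PU.1, the string CCACACCC for KLF factors, TGCNCNCG for the metal response element, and the CTCF and NF-E2 consensus strings. None of these strings contains another. In replicate 2, AGATAA was in 62 of 919 window peaks (6.75%, 95% interval 5.30 to 8.55) and in 9.22% of all peaks. CCAAT was in 169 (18.4%) against 18.5%, and the CTCF consensus in 48 (5.22%) against 5.13%. The metal response element, the site of the zinc-sensing factor Mtf1, was in 33 (3.59%) against 3.30%. GAGGAAGT, the PU.1 string, was in 33 (3.59%) against 4.76%, and in replicate 1 in 114 of 1827 (6.24%, 5.22 to 7.44) against 8.47%. Its share in the flanks was 4.18% in replicate 2 and 6.12% in replicate 1, in the latter near that of the windows. AGATAA was in 9.37% of flank peaks in replicate 2 and 9.42% in replicate 1. In replicate 1, AGATAA was in 7.55% of window peaks and 9.52% of all peaks, and for this string in both lists the upper bound of the window share lay below the share of the list, as it did for GAGGAAGT in replicate 1, although these bounds treat neighbouring peaks as independent.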

How the data were processed

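DNase-seq libraries of zinc-treated MEL cells were analysed from the peak and hotspot lists that the authors deposited, aligned to mm10 per the labels. The aligner and peak caller were not given in the sources used here. The whole-series lists were read as biological replicate 1, because the alignment behind them is named in the deposited text records of both of its libraries only. The other pair belongs to biological replicate 2. Peak values are a score deposited by the authors, a whole number of unstated meaning. Hotspot values are the authors' deposited −log10 q. The lists hold no read counts, so depth is unknown.

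Python 3.11.15 with numpy 2.4.6, pandas 2.3.3, scipy 1.17.1, pysam 0.24.0 and matplotlib 3.10.9 was used. All 84 comparisons of a list with a chromosome lay within reference lengths. The gene annotation was GENCODE mouse release M21, and sequences were read from the RefSeq mm10 genome. A raised segment was fitted by least squares to score percentiles. The fit was tried on shuffled percentiles with a planted segment, and recovery was required only for the larger planted rise. Shuffling removes the dependence between neighbouring peaks, so the trial does not show how exact the edges given here are. Bins of 100 kb needed 3 peaks. Shares have Wilson 95% intervals.

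The windows, gene lists and motifs were chosen with earlier results of these data known. In each window, genes named were up to 5 with the highest replicate 2 promoter score, up to 5 with no promoter peak, those next to the edges of each segment, and a fixed set (Hjv was not matched by symbol and is annotated as Hfe2). Other names were added to open or close a run or to complete a list, after values were seen. Alternatives covered flank length, peak class, list length, score scale, segment model, thresholds and overlap. Some genes that this rule names are not reported here.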

Additional observations from a re-analysis of the deposited data

How the results depend on the processing

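Over 132 results computed under alternatives, 65 stayed within their interval (for lengths, the spread between the lists) and 67 moved. No gap in median score between a window and its flanks changed sign, whereas shares and lengths have no sign to change. Inside minus flanks, the median score of replicate 1 fell to 2 (chromosome 3), 9.5 (19), 6.5 (12) and 3 (9) when that list was reduced to the length of the other. On chromosome 19 it was 73.5 for promoter peaks and 13 for peaks at or above the list median (18 in replicate 2). On chromosome 12 it was 27 with flanks of 1 Mb and 8 above the list median. The share of peaks in the top class moves with its limit by construction. For chromosomes 3, 19, 12 and 9 in turn, the top 5% held 17.9%, 13.1%, 13.9% and 18.1% in replicate 1 and 54.5%, 46.6%, 40.2% and 41.9% in replicate 2, and the top 20% held 46.4%, 34.2%, 35.6% and 38.8%, and 74.2%, 64.8%, 66.1% and 60%; over the lists these classes hold 5.06% and 5.26%, and 20.5% and 20.9%. Promoter peaks gave 51.6%, 53.8%, 37.5% and 47.2%, and 73.6%, 69.2%, 72.2% and 68.3%. Distal peaks gave 22.2% (chromosome 3), 17.6% (12) and 14.8% (9) in replicate 1, and 44.5% (12) and 33.0% (9) in replicate 2, and the reduced replicate 1 list 29.1% on chromosome 9. Of the segment lengths, 24 moved and 24 stayed within the spread between the lists, and the cause was not tested. That spread was wide on chromosome 3 (3.63 and 0.779 Mb), so large changes there counted as unmoved. With 5 Mb sides they were 3.60 Mb (chromosome 3, replicate 2), 0.815 Mb (19, replicate 1), 5.10 and 3.98 Mb (12) and 2.22 Mb (9, replicate 1). On the deposited score they were 0.815 and 0.624 Mb (19) and 1.89 and 0.397 Mb (9). With a level for each side, replicate 1 gave 0.815 Mb (19), 1.18 Mb (12) and 2.22 Mb (9). Distal peaks gave 2.23 and 0.404 Mb on chromosome 9. Bins of 100 kb gave 1.7 and 2.1 Mb (3), 0.6 and 0.7 Mb (19), 0.9 Mb (12, replicate 1) and 1.6 and 1.9 Mb (9). With bins, replicate 2 was the longer on chromosomes 3, 19 and 9. A setting chosen after seeing the data, the share of peaks above the list's lower quartile, gave 4.08, 1.00, 2.81 and 2.21 Mb in replicate 2 and 3.33 Mb on chromosome 9 in replicate 1. Where peaks had to share 50% of each other's length, sharing of replicate 2 peaks was 54.1%, 47.7%, 54.3% and 54.3%, against 50.8% of the list. Chromosome 19 then lay below the list, whereas at 1 bp it lay just above (71.0% against 70.6%). No paired analysis was possible because there is 1 group, with 1 list per biological replicate and no untreated library analysed here. Leaving out a replicate is the other list alone, given throughout. Depth is unknown, so a missing peak cannot be told apart from one under the detection limit.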
